A study of Mus musculus with 9 samples.

Results

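The 6 genes described here encode the surface molecules by which an antigen-presenting cell supplies or withholds the second signal that T cells need. They are the B7 ligands Cd80 and Cd86, the receptor Cd40, the ICOS ligand Icosl, and the checkpoint ligands Cd274 (PD-L1) and Pdcd1lg2 (PD-L2). They were chosen by name, with earlier results of these data known, and all 6 were measured among 19937 genes. The series profiled sorted cells of untreated wild-type C57BL/6 mice on 9 gene expression arrays, 3 each of Ly6C-high microglia, Ly6C-low microglia and spleen monocytes. Microglia are the resident macrophages of the brain, and Ly6C marks inflammatory monocytes and is known on endothelial cells of the brain as well. The labels give the Ly6C-high sort the cell type "MgSCs", the Ly6C-low sort bulk microglia, and the monocytes no Ly6C level. Age and sex are not in the labels used here.

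Brains were perfused, digested with collagenase and DNase and enriched for leukocytes on Percoll. The sort used antibodies to F4/80, MHC class II, CD45, CD11b and Ly6C, and the gates and the preparation of the spleen are not stated in the labels. Whether replicates are separate mice is not said in the labels, so the p-values rest on differences among these samples that may be technical only. Levels are log2 intensities as deposited, groups are given as mean ± SD with n = 3 arrays, and log2 fold changes carry their standard error (SE). Brightness also depends on the probe, so levels are compared between groups and never between genes. In RNA from a bulk sort, fewer cells of a type and less RNA per cell cannot be told apart.

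T cells that meet their antigen without costimulation are poorly activated. CD80 and CD86 engage the activating receptor CD28 and the inhibitory receptor CTLA-4, ICOS ligand engages ICOS, and CD40 on the presenting cell receives CD40 ligand from T cells and signals through TRAF proteins to NF-kB. PD-L1 and PD-L2 engage PD-1 and restrain T cells, and interferon gamma is a classical inducer of PD-L1. Resting microglia are known to carry low amounts of these molecules, which rise when microglia are activated.

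Cd274 and Pdcd1lg2 are neighbours on mouse chromosome 19, read in the same direction, with starts 43.5 kb apart. Pdcd1lg2 was dim in all groups, as described below, which limits any comparison of the pair. The promoters of both, and that of Icosl, are shown so that their composition can be read beside the levels. RefSeq promoters of the GRCm38.p6 build were matched for 4 of the 6 genes (Cd80, Icosl, Cd274 and Pdcd1lg2), and the 250 bases before each start are given on the plus strand, which is the strand of the gene. Capitals mark motif matches.
Cd274, chr19:29367188-29367437: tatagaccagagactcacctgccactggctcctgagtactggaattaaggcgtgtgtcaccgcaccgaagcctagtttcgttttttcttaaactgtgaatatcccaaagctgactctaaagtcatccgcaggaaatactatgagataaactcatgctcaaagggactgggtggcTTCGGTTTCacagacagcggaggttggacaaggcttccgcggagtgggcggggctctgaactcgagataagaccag
Pdcd1lg2, chr19:29410669-29410918: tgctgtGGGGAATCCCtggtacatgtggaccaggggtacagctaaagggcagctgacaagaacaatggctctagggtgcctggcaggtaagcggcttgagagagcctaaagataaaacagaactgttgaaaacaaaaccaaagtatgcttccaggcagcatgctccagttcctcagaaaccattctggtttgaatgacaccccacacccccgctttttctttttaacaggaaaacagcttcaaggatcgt
Icosl, chr10:78069118-78069367: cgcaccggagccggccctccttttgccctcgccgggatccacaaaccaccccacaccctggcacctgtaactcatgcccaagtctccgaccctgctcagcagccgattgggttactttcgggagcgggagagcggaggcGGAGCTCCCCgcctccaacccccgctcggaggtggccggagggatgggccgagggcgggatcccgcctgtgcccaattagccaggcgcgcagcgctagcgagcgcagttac
In Cd274 the capitals are a match to an interferon regulatory factor motif, GAAANNGAA, on the minus strand 76 bases before the start. This motif was found on either strand in 7.13% of the 32841 RefSeq promoters. In Icosl and Pdcd1lg2 they are matches to the NF-kB consensus, 111 and 244 bases before the start, and 7.25% of promoters hold such a match. The consensus allows several letters at some positions, and the match in Pdcd1lg2 meets it on both strands at the same position.

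The promoter of Icosl holds 23 CpG dinucleotides and is 68.8% G or C, with fewer CpGs in 86.7% of promoters. That of Cd274 holds 11 CpGs (50.4% G or C), while those of Pdcd1lg2 and Cd80 hold 3 each (48.4% and 52.8%). The interferon gamma activated site TTCNNNGAA, found in 7.02% of promoters, and the PU.1 motif GAGGAAGT, found in 2.44%, had no match in any of these 4 windows. The Cd80 window had no match to any of the 4 motifs. These matches describe letters only, and no binding was measured in the series.

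The arrays of the Ly6C-high sort were less alike than those of the other groups, with pairwise correlations over genes of 0.872 to 0.924. Those of Ly6C-low microglia were 0.967 to 0.980, and monocytes had 0.978 to 0.983. A probe set that the annotation gives to several Ly6c genes read 12.40 to 12.50 in Ly6C-high arrays, 7.07 to 10.39 in Ly6C-low arrays and 10.20 to 10.51 in monocyte arrays. A second such probe set read 11.85 to 12.03, 7.25 to 9.87 and 11.64 to 11.69 in the same order, so the place of the monocytes differed between them. Homeostatic microglia markers (11 genes, such as P2ry12 and Tmem119) averaged 8.43 to 9.19 in Ly6C-high arrays, 11.15 to 11.61 in Ly6C-low arrays and 7.09 to 7.15 in monocytes. Brain endothelium markers (14 genes, such as Cldn5 and Cdh5) averaged 10.40 to 10.89, 6.32 to 7.63 and 6.20 to 6.25 in the same order. The monocyte arrays also carried B cell markers (8 genes) at 8.05 to 8.71 and T cell markers (8 genes) at 7.99 to 8.63, where the brain sorts had 5.17 to 5.52 and 5.54 to 5.94. All 14 measured endothelial markers were called higher and all 11 homeostatic markers lower in Ly6C-high than in Ly6C-low microglia. Against monocytes, all 8 B cell and all 8 T cell markers were lower in each brain sort. NK cell markers were lower than in monocytes for 4 of 7 genes in each brain sort. Between the microglia sorts, 4 of 8 border-associated macrophage markers were lower and 1 of 8 pericyte and smooth muscle markers was higher in Ly6C-high cells. The part of these cells in the results that follow was not tested.

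**Figure D1:**
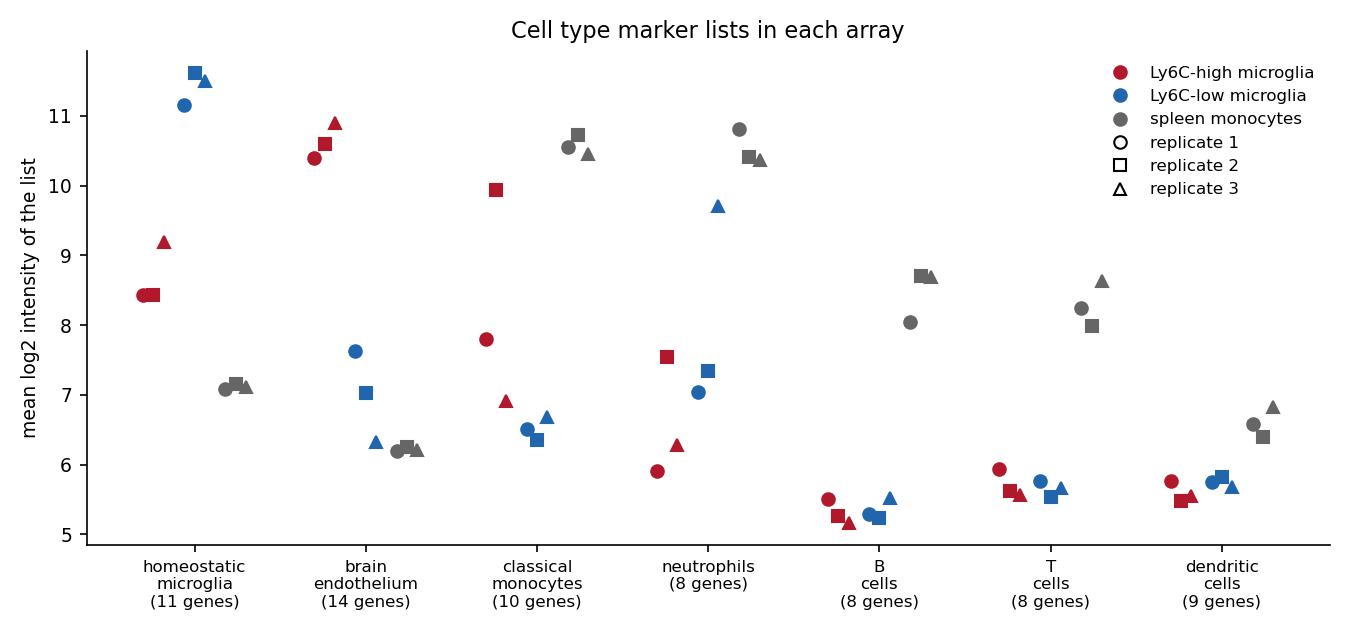
Mean log2 intensity of 7 cell type marker lists in each of the 9 arrays, with colour for the group and marker shape for the replicate. The Ly6C-high arrays lie highest for brain endothelium (10.40 to 10.89), and the monocyte arrays lie highest for classical monocytes, neutrophils, B cells, T cells and dendritic cells.

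Between the microglia sorts, Cd86, Icosl and Cd274 were lower in Ly6C-high cells and Cd40 was higher, while Cd80 and Pdcd1lg2 did not pass the test. The test was limma's moderated test at 0.05 after Benjamini-Hochberg adjustment across the 19937 genes. Thus 3 of 6 were called lower, where 11% of all genes were, and 1 of 6 was called higher, where 4.49% were. Against monocytes, 5 of 6 were lower in Ly6C-high microglia (background 14.6%) and 0 higher (background 6.88%), and Pdcd1lg2 was the member not called. In Ly6C-low microglia 3 of 6 were lower than in monocytes (Cd80, Cd40 and Cd274, background 7.71%) and Icosl alone was higher (background 6.80%). The median log2 fold change over all genes was 0.048, 0.091 and 0.052 in these comparisons. The arrays of the compared groups did not overlap for 30.1%, 45.9% and 42.3% of all genes in the same order. A lack of overlap, given below for several members, is thus common with 3 arrays a group. Each pair of comparisons shares a group of arrays, so their calls are not independent. The members were chosen with earlier results of these data known, so the counts beside the background are a description only.

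**Figure D2:**
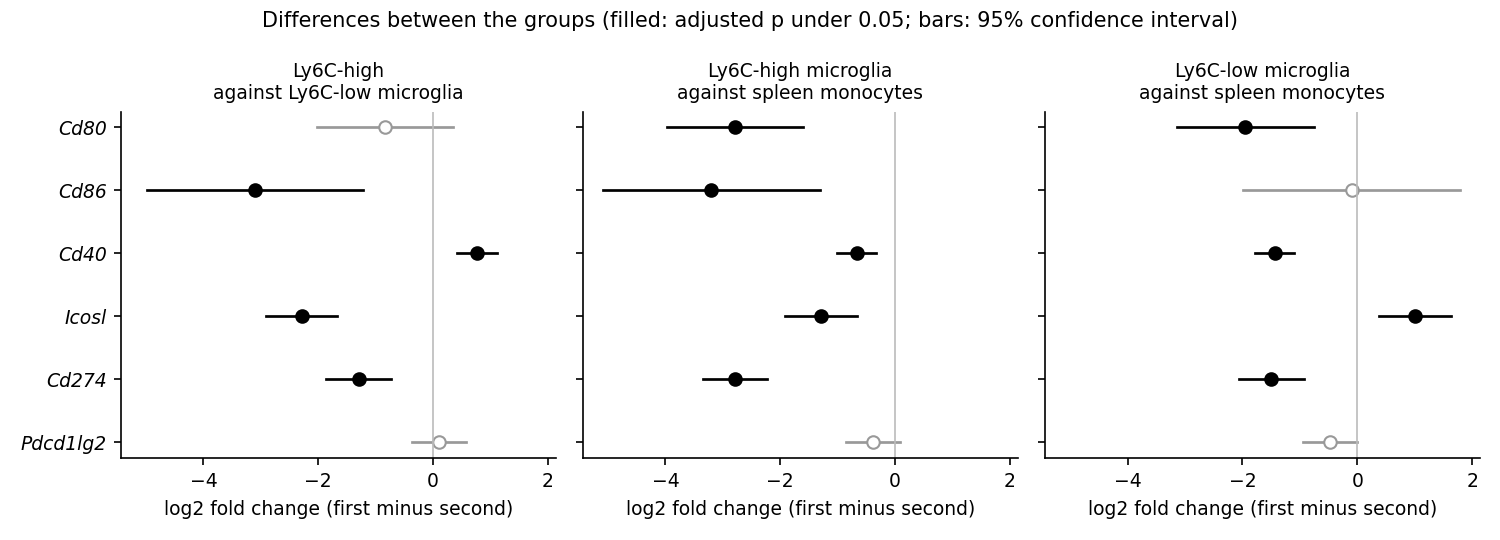
Log2 fold change of each gene in the 3 comparisons, the first group minus the second, with its 95% confidence interval. Filled points have a limma adjusted p under 0.05, and Cd86 has the widest interval in each panel, as between the microglia sorts from -4.99 to -1.21.

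**Figure D3:**
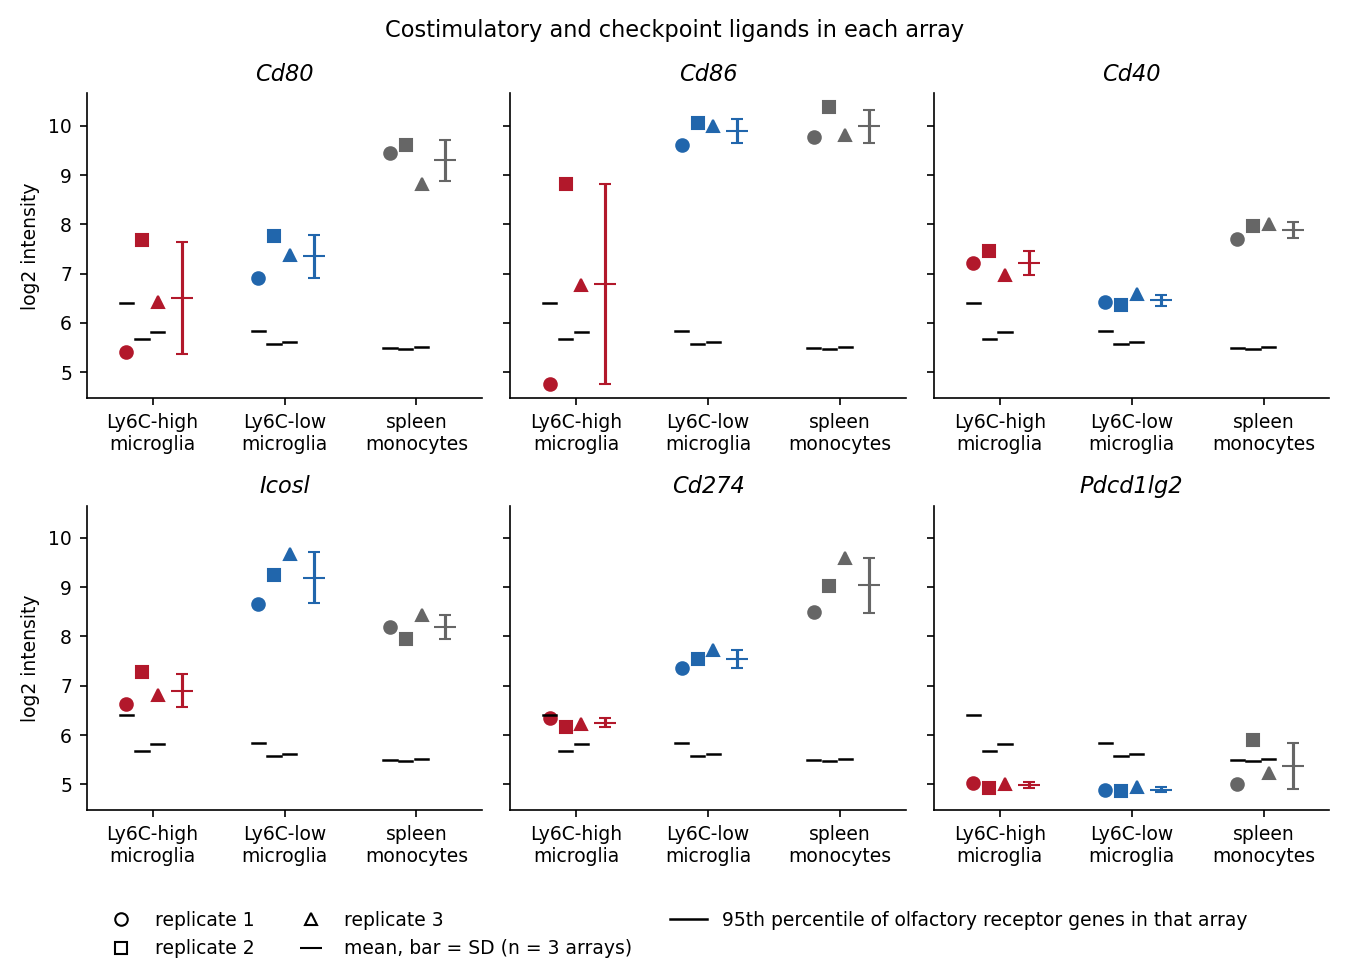
Log2 intensity of the 6 genes in each array, with the mean and SD of each group beside the points. The short black lines give the 95th percentile of 1027 olfactory receptor genes in the same array, a description of its dim end. Pdcd1lg2 lies at or under that line in 8 of 9 arrays, and Cd80 and Cd86 are spread widely in Ly6C-high microglia.

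Cd86, the B7 ligand that presenting cells carry before activation, had nearly the same mean in Ly6C-low microglia as in monocytes and was lower and uneven in Ly6C-high microglia. It read 4.76, 8.83 and 6.76 in Ly6C-high replicates 1, 2 and 3, and 9.61, 10.06 and 9.99 in Ly6C-low replicates 1, 2 and 3. Monocyte replicates 1, 2 and 3 read 9.76, 10.37 and 9.82. Every Ly6C-high array lay under every other array, and the Ly6C-low and monocyte arrays overlapped. Cd86 averaged 6.78 ± 2.03 in Ly6C-high arrays, 9.89 ± 0.24 in Ly6C-low arrays and 9.99 ± 0.34 in monocytes. It was thus 8.58-fold lower in Ly6C-high than in Ly6C-low microglia (log2 fold change -3.10 ± 0.83, limma adjusted p = 0.0367). Against monocytes it was 9.20-fold lower in Ly6C-high microglia (-3.20 ± 0.83, limma adjusted p = 0.0268). Between Ly6C-low microglia and monocytes the difference was -0.099 (95% confidence interval -1.99 to 1.79, limma adjusted p = 0.971). That interval rests on a spread pooled over the 3 groups, of which the Ly6C-high arrays, not in this comparison, had the largest SD (2.03). A fit on the compared arrays only gave the same difference with an SE of 0.20 (limma adjusted p = 0.762).

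The spread of Cd86 in the Ly6C-high arrays, from 4.76 to 8.83, moved with other values of the same arrays. Replicate 1, the lowest, had the highest dim end, with olfactory receptor genes reaching 6.41 at their 95th percentile, against 5.67 and 5.82 in replicates 2 and 3. In that array Cd80, Cd86, Cd274 and Pdcd1lg2 were all at or under the dim end, so they are not separated from it there. Replicate 2, the highest, had classical monocyte markers (10 genes) at a mean of 9.94, against 7.80 and 6.91 in replicates 1 and 3. None of these 10 genes was at the dim end in replicate 2, while Vcan, Chil3 and Ms4a4c were at or under it in both other arrays. The part of monocytes and of the dim end in the Cd86 values was not tested.

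Without Ly6C-high replicate 1 the Cd86 difference between the microglia sorts was -2.09 (limma adjusted p = 0.0415), and without replicate 2 it was -4.12 (0.00154). The call was lost without Ly6C-high replicate 3 (0.0769), Ly6C-low replicate 1 (0.0742), 2 (0.114) or 3 (0.112), and monocyte replicate 1 (0.0621), 2 (0.0592) or 3 (0.0604), with log2 fold changes of -3.24 to -3.01. Against monocytes, the call of Ly6C-high microglia was lost without Ly6C-high replicate 3 (0.0576) and without monocyte replicate 1 (0.0702), 2 (0.0897) or 3 (0.0673). Quantile normalization gave adjusted p of 0.0545 and 0.0534 in these comparisons, and a fit on the compared arrays only gave 0.103 and 0.0746. In all, the call between the microglia sorts was lost in 12 of 21 alternatives and that against monocytes in 6 of 20.

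Cd80, the B7 ligand that shares both receptors with Cd86 and typically appears later in activation, was lower in both microglia sorts than in monocytes. Ly6C-high replicates 1, 2 and 3 read 5.41, 7.69 and 6.43, and Ly6C-low replicates 1, 2 and 3 read 6.90, 7.76 and 7.38. Monocyte replicates 1, 2 and 3 read 9.45, 9.62 and 8.82. All monocyte arrays lay above all microglia arrays, and the microglia sorts overlapped, with Ly6C-high replicate 2 above 2 of the Ly6C-low arrays. The group values were 6.51 ± 1.14, 7.35 ± 0.43 and 9.29 ± 0.42. Cd80 was 6.91-fold lower in Ly6C-high microglia than in monocytes (-2.79 ± 0.52, limma adjusted p = 0.00664). In Ly6C-low microglia it was 3.85-fold lower than in monocytes (-1.95 ± 0.52, limma adjusted p = 0.0389). Between the microglia sorts the difference of -0.84 was not called (95% confidence interval -2.03 to 0.34, limma adjusted p = 0.327).

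The order of the Ly6C-high arrays was the same for Cd80 as for Cd86, with replicate 2 highest and replicate 1 lowest. Without replicate 2 the difference between the microglia sorts was -1.43 and was called (limma adjusted p = 0.0359), and without replicate 1 it was -0.29 (0.742). The call of Ly6C-low microglia against monocytes was lost without Ly6C-high replicate 3 (0.0538), Ly6C-low replicate 1 (0.129), 2 (0.0664) or 3 (0.1), and monocyte replicate 1 (0.123), 2 (0.131) or 3 (0.0571). It was also lost with quantile normalization (0.0734), median centring (0.0517) and all probe sets tested (0.063). In all, this call was kept in 10 of 20 alternatives and lost in 10. It was kept with the compared arrays only (0.00461), with array weights (0.00109) and without Ly6C-high replicate 2 (0.00681). The Ly6C-high arrays are not in this comparison but enter the pooled spread, and they had the largest SD. A dimmer probe set of Cd80 gave differences of -0.45 (limma adjusted p = 0.482) between the microglia sorts, -2.20 (0.00636) for Ly6C-high microglia against monocytes and -1.76 (0.0192) for Ly6C-low microglia against monocytes, adjusted over all probe sets.

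Cd40, the receptor through which T cell help reaches the presenting cell, was the only member called higher in Ly6C-high than in Ly6C-low microglia. It read 7.23, 7.46 and 6.97 in Ly6C-high replicates 1, 2 and 3 and 6.42, 6.36 and 6.59 in Ly6C-low replicates 1, 2 and 3. Monocyte replicates 1, 2 and 3 read 7.71, 7.97 and 8.0. The groups did not overlap in any comparison, and the order ran from Ly6C-low microglia (6.46 ± 0.12) through Ly6C-high microglia (7.22 ± 0.24) to monocytes (7.89 ± 0.16). Each step of that order passed the test. Cd40 was 1.70-fold higher in Ly6C-high than in Ly6C-low microglia (0.76 ± 0.15, limma adjusted p = 0.0094). The step from Ly6C-high microglia to monocytes was smaller than the difference of Ly6C-low microglia from monocytes, at -0.67 ± 0.15 (limma adjusted p = 0.0147) against -1.44 ± 0.15 (0.00035).

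The call of Cd40 in Ly6C-high microglia against monocytes was lost with quantile normalization (-0.36, limma adjusted p = 0.132), with cyclic loess (-0.46, 0.0667), and without monocyte replicate 2 (0.0599) or 3 (0.0556). The call between the microglia sorts held in 20 of 21 alternatives and was lost with the number in the sample description as a block (0.84, 0.139). The difference in that fit rests on only 2 pairs of arrays. Endothelial markers rose in the same arrays in which Cd40 was higher, by a median log2 fold change of 3.52 over the 14 genes, and 3 of 10 classical monocyte markers were called higher, with a list median of 1.50. Ly6C-high replicate 2, the array with the highest monocyte markers, had the highest Cd40 of the 3. Without it the difference was 0.64 (0.0187), and the part of either cell type was not tested.

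Icosl, the ligand that sustains already activated and follicular helper T cells through ICOS, was the only member higher in Ly6C-low microglia than in monocytes. Its values in Ly6C-high replicates 1, 2 and 3 were 6.62, 7.27 and 6.81, and in Ly6C-low replicates 1, 2 and 3 they were 8.65, 9.25 and 9.67. Those of monocyte replicates 1, 2 and 3 were 8.20, 7.95 and 8.43. No groups overlapped, with Ly6C-high arrays lowest, monocytes between and Ly6C-low arrays highest. Ly6C-high microglia averaged 6.90 ± 0.33, Ly6C-low microglia 9.19 ± 0.51 and monocytes 8.19 ± 0.24. Icosl was 4.89-fold lower in Ly6C-high than in Ly6C-low microglia (-2.29 ± 0.27, limma adjusted p = 0.000833), a call kept in all 21 alternatives. Against monocytes it was lower in Ly6C-high microglia by -1.29 ± 0.27 (limma adjusted p = 0.012), kept in all 20, and higher in Ly6C-low microglia by 1.00 ± 0.27 (0.0429).

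The call of Icosl in Ly6C-low microglia against monocytes was the less steady. It was lost without Ly6C-high replicate 3 (limma adjusted p = 0.057), Ly6C-low replicate 2 (0.122) or 3 (0.13), and monocyte replicate 1 (0.12), 2 (0.149) or 3 (0.0658). The log2 fold change was 0.76 to 1.12 in these fits. Median centring (0.0795), all probe sets tested (0.0684) and an intensity trend with robust spread (0.0503) also ended it. The homeostatic microglia markers differed between the microglia sorts in the same direction as Icosl, by a median of -2.94 over the 11 genes, and against monocytes the Ly6C-low arrays had them higher by a median of 4.50. In Ly6C-high microglia against monocytes the directions differed, with 9 of 11 markers higher (median 1.84) and Icosl lower. Their part in the Icosl values was not tested.

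Cd274, which encodes PD-L1, rose in a graded order from Ly6C-high microglia through Ly6C-low microglia to monocytes. It read 6.35, 6.17 and 6.23 in Ly6C-high replicates 1, 2 and 3 and 7.37, 7.55 and 7.72 in Ly6C-low replicates 1, 2 and 3. Monocyte replicates 1, 2 and 3 read 8.49, 9.02 and 9.60. The 3 groups did not overlap, and the Ly6C-high arrays lay within 0.2 of each other although Cd86 differed widely among them. Ly6C-high replicate 1 was under the dim end of its array (6.41), so its value is only a bound and limits the size of the differences. Cd274 averaged 6.25 ± 0.09 in Ly6C-high arrays, 7.54 ± 0.18 in Ly6C-low arrays and 9.04 ± 0.55 in monocytes. It was 2.46-fold lower in Ly6C-high than in Ly6C-low microglia (-1.30 ± 0.25, limma adjusted p = 0.00832). Against monocytes it was 6.91-fold lower in Ly6C-high microglia (-2.79 ± 0.25, limma adjusted p = 0.000155) and 2.82-fold lower in Ly6C-low microglia (-1.49 ± 0.25, 0.00433). Both calls against monocytes held in all 20 alternatives, and that between the microglia sorts in 19 of 21. It was lost with the number in the sample description as a block (-1.28, 0.0927), where the difference rests on only 2 pairs of arrays. It was also lost when replicate 2 of Ly6C-high and replicate 3 of Ly6C-low microglia were both left out (-1.17, 0.0714).

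Pdcd1lg2, which encodes PD-L2, was dim in all groups. Ly6C-high replicates 1, 2 and 3 read 5.04, 4.93 and 5.0, Ly6C-low replicates 1, 2 and 3 read 4.88, 4.86 and 4.94, and monocyte replicates 1, 2 and 3 read 5.0, 5.90 and 5.22. Monocyte replicate 2 alone stood above the dim end of its array, whose olfactory receptor genes reached 5.48 at their 95th percentile. The monocyte arrays lay above the Ly6C-low arrays and overlapped the Ly6C-high arrays. The group means were 4.99 ± 0.05, 4.90 ± 0.04 and 5.37 ± 0.47. No difference was called, at 0.094 between the microglia sorts (95% confidence interval -0.38 to 0.56, limma adjusted p = 0.783), -0.39 for Ly6C-high microglia against monocytes (-0.86 to 0.08, 0.195) and -0.48 for Ly6C-low microglia against monocytes (-0.95 to -0.009, 0.186). A level at the dim end gives only a weak bound on PD-L2 RNA in the microglia sorts.

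Beside the differences from monocytes stand the markers of other cells in the spleen sort. Of the 9 dendritic cell genes measured, 4 were lower in each microglia sort than in monocytes and 5 were not called. The background of lower calls was 14.6% for Ly6C-high and 7.71% for Ly6C-low microglia. The mean level of the 9 genes was 6.40 to 6.83 in monocytes against 5.47 to 5.83 in the brain sorts. Xcr1 and Clec10a were at or under the dim end in all 3 monocyte arrays, Cd209a in monocyte replicate 1 and Zbtb46 in monocyte replicate 3. Ms4a1, Fcer2a, Cr2 and Fcrla of the B cell list and Cd3d, Cd3g and Cd2 of the T cell list were at or under the dim end in all 6 brain arrays and above it in all 3 monocyte arrays. Neutrophil markers (8 genes) averaged 10.37 to 10.80 in monocytes, 5.90 to 7.54 in Ly6C-high arrays and 7.04 to 9.71 in Ly6C-low arrays, where replicate 3 was the highest. B cells and dendritic cells are textbook carriers of CD80, CD86, CD40 and ICOS ligand, and their part in the monocyte levels was not tested.

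Most calls among the receptors of these ligands were against monocytes. Of 6 receptor genes measured (Cd28, Ctla4, Icos, Cd40lg, Pdcd1 and Rgmb), 3 were lower and 1 higher than in monocytes in each microglia sort. Over all genes, 14.6% were lower and 6.88% higher in Ly6C-high microglia, and 7.71% and 6.80% in Ly6C-low microglia. Cd28 and Ctla4 were at or under the dim end in all 6 brain arrays, so the dim end limits the size of their differences. Cd28, the activating receptor of both B7 ligands, differed by -3.26 ± 0.26 in Ly6C-high microglia (limma adjusted p = 9.78e-05) and by -3.71 ± 0.26 in Ly6C-low microglia (4.87e-05). Ctla4, its inhibitory counterpart, differed by -2.71 ± 0.20 and -2.92 ± 0.20, and Icos by -3.06 ± 0.26 and -2.47 ± 0.26, in the same order. Cd28, Ctla4 and Icos were lower in the same comparisons as the T cell markers given above. Pdcd1 (-0.29 and 0.06) and Cd40lg (-0.26 and -0.51), in the same order, were not called, and Cd40lg was at or under the dim end in every array. The part of T cells in these values was not tested. Rgmb, a co-receptor for bone morphogenetic proteins that also binds PD-L2, was lower in Ly6C-high than in Ly6C-low microglia (-0.90 ± 0.11, limma adjusted p = 0.000754) and higher than in monocytes in Ly6C-low microglia (1.31 ± 0.11, 9.44e-05). Its call in Ly6C-high microglia against monocytes (0.41 ± 0.11, 0.0259) was lost without monocyte replicate 1, 2 or 3, which left 0 receptors called higher. Without Ly6C-high replicate 1, 2 receptors in place of 1 were lower between the microglia sorts.

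Among 12 other B7 family and inhibitory ligands, 1 was higher and 3 were lower in Ly6C-high than in Ly6C-low microglia, with a list median of 0.094. Over all genes, 4.49% were higher and 11% lower. Cd200, whose product restrains myeloid cells and is known in endothelium and neurons, was higher by 2.71 ± 0.23 (limma adjusted p = 0.000136). Vsir, which encodes the inhibitory B7 relative VISTA, was lower by -2.34 ± 0.35 (0.00247), and Nectin2, a ligand of TIGIT and CD226, by -0.84 ± 0.20 (0.0238). The lower count was 1 without Ly6C-low replicate 2, and Nectin2 was not called without Ly6C-high replicate 2 (0.0518) or 3 (0.0576) or Ly6C-low replicate 2 (0.0732) or 3 (0.0792). Without Ly6C-high replicate 1, 2 genes were called higher. Nectin2 was at or under the dim end in Ly6C-high replicates 1 and 3, and Cd200 in Ly6C-low replicate 3, which limits the size of their differences. The difference in Cd200 stood beside that of the endothelial markers, 14 of 14 of which were higher, and their part in it was not tested.

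Against monocytes, Cd47, the signal that restrains phagocytosis, was lower in Ly6C-high microglia (-1.63 ± 0.17, limma adjusted p = 0.000406) and in Ly6C-low microglia (-1.79 ± 0.17, 0.000239). In Ly6C-high microglia 1 of the 12 genes was higher and 3 were lower (background 6.88% and 14.6%). Cd200 was the gene called higher (1.79 ± 0.23, 0.000949), and Pvr was among those lower (-1.54 ± 0.22, 0.00206). Without Ly6C-high replicate 2 the higher count was 2. In Ly6C-low microglia 3 were higher and 5 lower (background 6.80% and 7.71%), and Vsir was the largest rise (1.96 ± 0.35, 0.00625). The call of Ceacam1, a ligand of TIM-3, in that comparison (-1.60 ± 0.45, 0.0482) was lost without Ly6C-high replicate 3 (0.0585), Ly6C-low replicate 1 (0.159), 2 (0.106) or 3 (0.0724), and monocyte replicate 1 (0.13), 2 (0.14) or 3 (0.108). The lower count fell to 3 without Ly6C-low replicate 2 or 3 or any monocyte array.

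The costimulatory ligands of the TNF superfamily gave few calls, with 1 gene lower in each comparison. The background of lower calls was 11% between the microglia sorts. Against monocytes it was 14.6% for Ly6C-high and 7.71% for Ly6C-low microglia. Of the 7 genes, 6 or 7 were at or under the dim end in every array. Tnfsf9, the ligand of 4-1BB, was lower in Ly6C-high than in Ly6C-low microglia (-0.83 ± 0.21, limma adjusted p = 0.0309), where it was above the dim end in Ly6C-low replicates 2 and 3 only. That call was lost without Ly6C-high replicate 2 (0.0671) or 3 (0.0658), Ly6C-low replicate 2 (0.115) or 3 (0.12), and monocyte replicate 1 (0.0558), 2 (0.0531) or 3 (0.052). Tnfsf14, which encodes LIGHT, was lower than in monocytes by -0.80 ± 0.16 in Ly6C-high microglia (0.0097) and by -0.99 ± 0.16 in Ly6C-low microglia (0.00393), and was above the dim end in monocyte replicates 2 and 3 only. No gene of the list was called higher; 1 was, without Ly6C-high replicate 2 (both comparisons of that sort) or without Ly6C-low replicate 1 (Ly6C-low microglia against monocytes).

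Of 15 measured genes that carry or limit the signal of CD40, 6 were lower and 0 higher in Ly6C-high than in Ly6C-low microglia, with a median of -0.92. Cd40 itself was higher. Ly6C-high replicate 1 had 6 of the 15 at or under the dim end (Traf1, Traf5, Traf6, Birc2, Ikbkg and Relb), where each other brain array had Traf1 alone. Its list mean was 6.80, against 7.33 and 7.13 in Ly6C-high replicates 2 and 3. Tnfaip3, the deubiquitinase A20 that NF-kB induces and that limits it, was lower by -2.50 ± 0.24 (limma adjusted p = 0.00028). Rel, an NF-kB subunit, was lower by -2.06 ± 0.33 (0.00355), and Birc3, the ubiquitin ligase cIAP2, by -1.45 ± 0.22 (0.00273). Against monocytes 9 of 15 were lower in Ly6C-high microglia (median -1.51) and 3 in Ly6C-low microglia (median -0.37). Over all genes, 29.1% of calls were higher between the microglia sorts and 32% in Ly6C-high microglia against monocytes. Lower calls were thus the more common there in general, and whether this list exceeds that skew was not tested.

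Traf1, an NF-kB target and adaptor of CD40, was at or under the dim end in all 6 brain arrays, so the dim end limits the size of its differences. It was lower than in monocytes by -2.95 ± 0.17 (limma adjusted p = 1.87e-05) in Ly6C-high and -2.94 ± 0.17 (1.63e-05) in Ly6C-low microglia, and no comparison of the sorts rests on these values. Tank, a TRAF-binding adaptor, was lower by -2.06 ± 0.24 (0.000624) and -1.44 ± 0.24 (0.00432), and Ikbkb, a kinase that releases NF-kB, was lower by -1.20 ± 0.22 in Ly6C-low microglia (0.00775). Tnfaip3 was the 1 gene of the list higher in Ly6C-low microglia than in monocytes (0.98 ± 0.24, 0.0286), a call lost without Ly6C-low replicate 2 or 3 or monocyte replicate 1 or 2.

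Of 10 measured interferon gamma and JAK-STAT genes, which act upstream of PD-L1 induction, 5 were lower and 0 higher in Ly6C-high than in Ly6C-low microglia (median -1.21). The lower count was 3 without Ly6C-low replicate 3. Lower calls were the more common over all genes too, with 29.1% of calls higher in this comparison. Whether this list exceeds that skew was not tested. Ifngr1, the ligand-binding receptor chain, was lower by -1.89 ± 0.45 (limma adjusted p = 0.0227), and Irf8, a factor of the macrophage lineage, by -1.43 ± 0.20 (0.00189). Jak1, the kinase paired with that chain, was lower by -1.42 ± 0.30 (0.0133). Ifngr1 was not called without Ly6C-low replicate 2 (0.0826) or 3 (0.0881), nor Jak1 without replicate 3 (0.0585).

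Against monocytes 7 of the 10 were lower in Ly6C-high microglia, among them Ifngr1 (-2.42 ± 0.45, limma adjusted p = 0.00654), Jak1 (-1.61 ± 0.30, 0.00664) and Ifngr2, the second receptor chain (-2.39 ± 0.54, 0.0156). The count was 3 without monocyte replicate 1 or 2, and Ifngr2 was not called there (0.0565 and 0.0599). In Ly6C-low microglia 1 gene was lower and 1 higher than in monocytes, with a list median of -0.14. These counts were near the background of 7.71% and 6.80%. Jak2 was lower (-1.68 ± 0.28, 0.00451) and Socs3, the feedback inhibitor of STAT3 signalling, was higher (1.24 ± 0.12, 0.000195).

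Genes known to set the turnover of the ligands at the cell surface, or to act beside them, formed a list of 8. Between the microglia sorts 4 were lower in Ly6C-high cells and 0 higher (median -0.89, background 11% and 4.49%). Cmtm6, whose product protects PD-L1 from degradation, was lower by -1.90 ± 0.40 (limma adjusted p = 0.0135), and was not called without Ly6C-low replicate 2 (0.0581) or 3 (0.0571). Il10ra, the receptor chain through which IL-10 restrains microglia, was lower by -3.56 ± 0.19 (2.19e-05), and Cd81, a tetraspanin partner of surface receptors, by -1.21 ± 0.23 (0.00802).

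Il10ra lay between the microglia sorts in monocytes, lower than them in Ly6C-high microglia (-2.58 ± 0.19, limma adjusted p = 5.65e-05) and higher in Ly6C-low microglia (0.98 ± 0.19, 0.00937). Marchf1, the ubiquitin ligase that removes CD86 and MHC class II from the surface, was lower in Ly6C-high microglia than in monocytes (-0.83 ± 0.17, 0.00986), a call lost with cyclic loess (-0.51, 0.0658). Cd81 was higher in Ly6C-low microglia than in monocytes (2.03 ± 0.23, 0.000561). Its call in Ly6C-high microglia (0.82 ± 0.23, 0.0368) was lost without Ly6C-high replicate 1 (0.0618) or 3 (0.0861), Ly6C-low replicate 2 (0.0505) or 3 (0.0558), and monocyte replicate 1 (0.102) or 2 (0.073), which left 0 of the 8 higher. In Ly6C-low microglia 2 of the 8 were higher and 0 lower (background 6.80% and 7.71%). There were 4 higher without Ly6C-high replicate 2 and 1 lower without Ly6C-high replicate 1.

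MHC class II presentation supplies the antigen signal that the costimulatory ligands accompany, and MHC class II was also among the sort antigens. Of 8 measured genes, 7 were lower in Ly6C-high microglia and 5 in Ly6C-low microglia than in monocytes, with medians of -2.82 and -2.10. The background was 14.6% and 7.71%. H2-Aa, an MHC class II chain, was lower by -5.07 ± 0.23 (limma adjusted p = 6.3e-06) and -4.80 ± 0.23 (6.62e-06), and H2-Ab1, its partner chain, by -3.97 ± 0.17 (4.7e-06) and -3.13 ± 0.17 (1.17e-05). Cd74, the invariant chain, was lower by -4.31 ± 0.32 in Ly6C-high microglia (5.74e-05), and H2-Eb1 by -3.13 ± 0.26 in Ly6C-low microglia (0.000113). These genes are also carried by B cells, whose 8 markers were all lower in the same comparisons.

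Between the microglia sorts 2 of the 8 were lower in Ly6C-high cells (background 11%). They were Cd74 (-1.37 ± 0.32, limma adjusted p = 0.0208) and H2-Ab1 (-0.84 ± 0.17, 0.0109). The count was 4 without Ly6C-high replicate 2 and 1 without Ly6C-low replicate 2 or 3, and Cd74 was not called without Ly6C-low replicate 1 (0.0541), 2 (0.0649) or 3 (0.0744). H2-Ab1 was not called with cyclic loess (-0.55, 0.132). H2-Aa, H2-Eb1, Cd74 and Ciita were at or under the dim end in Ly6C-high replicate 1 and above it in the other arrays. Cd86 in Ly6C-low microglia was within its error of the monocyte level while H2-Aa in the same arrays was 27.9-fold lower than in monocytes.

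**Figure D4:**
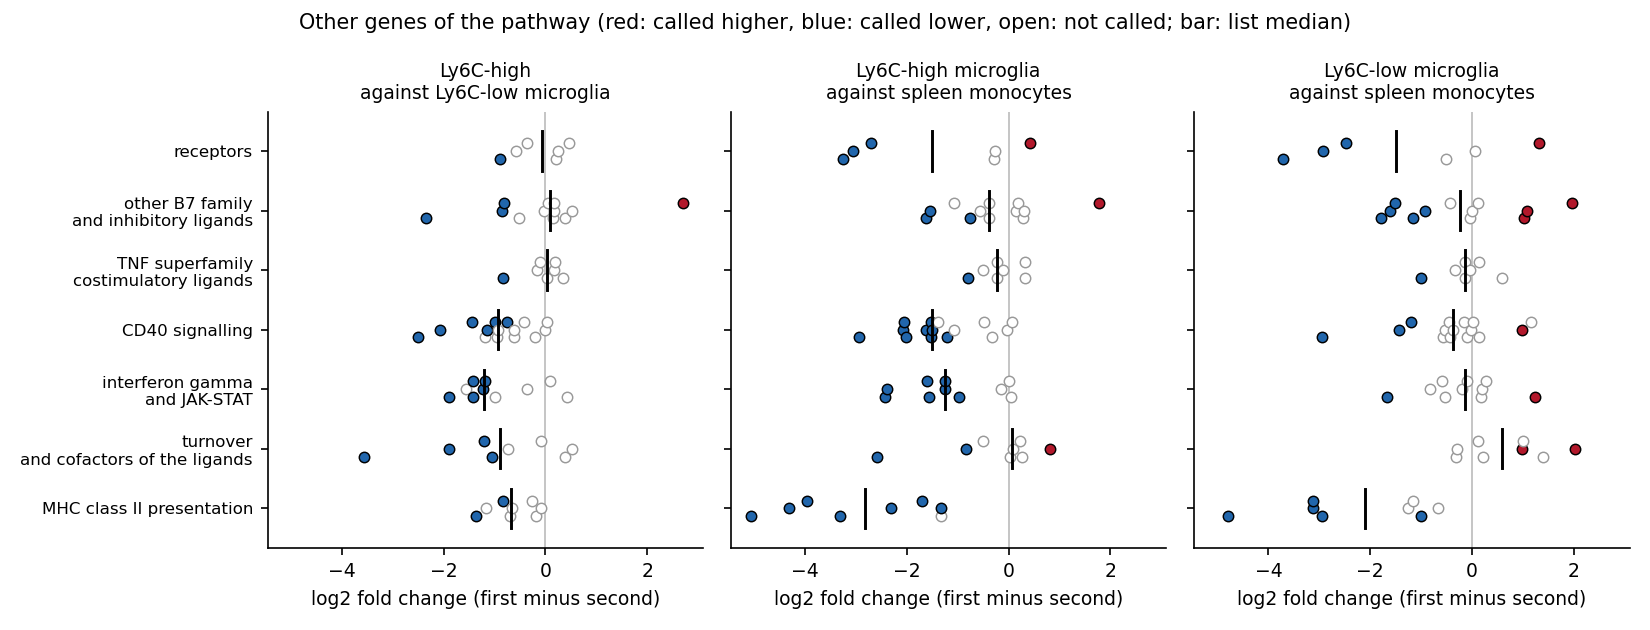
Log2 fold change of each gene of the 7 pathway lists in the 3 comparisons, the first group minus the second, with the list median as a black bar. Blue points (called lower) outnumber red points (called higher) for CD40 signalling and for interferon gamma and JAK-STAT in Ly6C-high microglia, with 6 and 5 lower against Ly6C-low microglia and 9 and 7 lower against monocytes. Lower calls were also the more common over all genes, where 29.1% and 32% of calls were higher in the same order. With quantile normalization these shares were 40.8% and 45.1%. Whether the lists exceed this general skew was not tested.

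The genes whose profile over the 9 arrays was most like each member were sought by Pearson correlation among 9598 genes at or above the median level. These correlations are a description, over arrays that share 3 group means and array quality. Cd80 was closest to Parp14 (r = 0.989), Dnajb11 (0.988) and Clint1 (0.986), and Cd86 to Srrm1 (0.995), Cdk13 (0.990) and Vps13c (0.990). Cd40 was closest to Trps1 (0.986), Slk (0.980) and Sp100 (0.980), whose group means had the same order as Cd40. Sp100, a nuclear body protein, averaged 6.85 in Ly6C-low microglia, 8.78 in Ly6C-high microglia and 10.35 in monocytes.

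Icosl was closest to Bcor (0.982), Pip4p1 (0.981) and Mtmr4 (0.981), each highest in Ly6C-low microglia. Cd274 was closest to Klrd1 (0.991), a receptor chain of natural killer cells, to Itgax (0.984), which encodes the integrin CD11c of dendritic cells and some macrophages, and to Dusp4 (0.983). Klrd1 averaged 5.34, 6.75 and 8.95 and Itgax 5.87, 7.29 and 8.54 in Ly6C-high microglia, Ly6C-low microglia and monocytes, the order of Cd274. Klrd1 was at or under the dim end in every Ly6C-high array, and Itgax and Cd274 in Ly6C-high replicate 1. Pdcd1lg2, near the dim end, reached at most 0.936 with Ank1, then 0.927 with Rcn1 and 0.923 with Dpep2. Among the members themselves the highest correlation was that of Cd80 with Cd274 (0.813), and the lowest that of Cd40 with Icosl (-0.40).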

How the data were processed

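RNA of 9 sorted samples was measured on arrays. The authors deposited log2 intensities of all arrays in 1 table. RMA and oligo appear in the submitters' processing notes, with no version. The genome build is not given in the sources used here. RMA compresses differences of dim genes. Values (2.54 to 13.81) were used as deposited. Of 34760 probe sets, 21640 have 1 symbol in the platform annotation, 1321 several and 11799 none; the brightest probe set stood for each of 954 genes with several, leaving 19937 genes.

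limma 3.58.1 in R 4.3.3 (lmFit, eBayes) fitted 3 group means over the 9 arrays, two-sided, and Benjamini-Hochberg adjustment covered all genes, with a threshold of 0.05; the code was tested on simulated data. A bare value in parentheses after a named array or setting is its limma adjusted p. Alternatives covered normalization, probe set choice, filtering, spread models, replicate blocks and left-out arrays. Where 1 array of a group is left out, the spread is pooled over the groups. Array number limits the precision.

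The text names all members, up to 3 called genes per pathway list with the largest change, marker lists by their level and members at the dim end, and the 3 most correlated genes of each member, leaving out predicted symbols. Of 167 list symbols, 157 were measured, and the others are not analysed here. Members and lists were chosen with earlier results of these data known. Promoter sequences are from RefSeq.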

Additional observations from a re-analysis of the deposited data

How the results depend on the processing

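Member calls were recomputed under 21 alternatives between the microglia sorts and 20 in each comparison with monocytes. Of 363 recomputed member fold changes, 312 kept direction and side of the threshold, 45 lost the call, 1 gained it and 5 turned sign; the cause was not tested. Between the microglia sorts the counts, 1 higher and 3 lower, became 0 and 1 with the description number as a replicate block, where 2 pairs share a number (correlations of 0.30 and 0.21, the highest of the 9 between these sorts) and all-gene calls were 394 in place of 3080. That fit used the microglia arrays only, and its differences rest on the 2 pairs, which leaves little to estimate the spread. Why calls were lost there was not tested. The log2 fold changes of the called members moved little from the main fit: Cd86 -3.00 against -3.10, Cd40 0.84 against 0.76, Icosl -2.21 against -2.29 and Cd274 -1.28 against -1.30. This block also ended the calls of 13 of 16 named list genes (adjusted p 0.0701 to 0.413), all but Cd200, Tnfaip3 and Il10ra. Samples with the same title number had correlations of 0.30, 0.15 and -0.03 between the microglia sorts. These values cannot show whether that number pairs the samples. A replicate block on the title number changed no member call, with 1 higher and 3 lower (2973 calls). It ended the calls of Nectin2 (0.0556) and Tnfsf9 (0.0574). A fit on the compared arrays only ended those of Nectin2 (0.0604), Tnfsf9 (0.0956), Ifngr1 (0.0754), Cmtm6 (0.0526) and Cd74 (0.063). In Ly6C-high microglia against monocytes the lower count was 3 with quantile normalization, and 3 to 5 without each array in turn. In Ly6C-low microglia against monocytes the higher count was 0 with median centring, all probe sets, intensity trend with robust spread, or leaving out replicate 2 of Ly6C-high and replicate 3 of Ly6C-low microglia at the same time, and 0 to 1 without each array in turn. The signs that turned were of differences not called: Pdcd1lg2 between the microglia sorts (-0.010 with cyclic loess) and Cd86 in Ly6C-low microglia against monocytes (0.090 with quantile normalization, 0.095 with cyclic loess, and -0.21 to 0.094 without each array in turn, at 0.041 without Ly6C-low replicate 1 and 0.094 without monocyte replicate 2). Pdcd1lg2 had no value with dim genes left out.

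All-gene calls between the microglia sorts were 2011 and 1956 without Ly6C-low replicates 2 and 3, and 2038 with the compared arrays only. In Ly6C-high microglia against monocytes they were 4290, with 2505 and 2511 without monocyte replicates 1 and 2. In Ly6C-low microglia against monocytes they were 2894, with 4614 on the compared arrays only, 5738 with array weights and 1864 without monocyte replicate 1. Of calls, 29.1% were higher between the microglia sorts (40.8% with quantile normalization or cyclic loess) and 32.0% in Ly6C-high microglia against monocytes (45.1% and 43.5%). Depth is signal over the dim end: Pdcd1lg2 in 8 arrays, Traf1, Cd28 and Ctla4 in the 6 brain arrays, and Cd80, Cd86, Cd274, H2-Aa, H2-Eb1 and Cd74 in Ly6C-high replicate 1, give no more than a bound. The same holds for Nectin2 in Ly6C-high replicates 1 and 3 and monocyte replicate 2, and for Cd200 in Ly6C-low replicate 3.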
